A study of Drosophila melanogaster with 8 samples.

Results

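The basement membrane is a thin sheet of secreted protein that lines the fat body, muscles, gut and other organs of the fly and faces the hemolymph. It is built from networks of collagen IV and of laminin trimers, joined by the heparan sulfate proteoglycan perlecan and by nidogen, and it is changed by matrix enzymes. In Drosophila, fat body cells and hemocytes (the fly's blood cells) are known to make and secrete much of this matrix. The 10 genes described here are vkg (a collagen IV chain), LanA, LanB1 and LanB2 (laminin subunits), trol (perlecan), SPARC, Ppn (papilin), Pxn (peroxidasin), Tig (tiggrin) and Mmp2 (a matrix metalloprotease). They were taken by name from the 17411 genes of the count files. Of these, 9 were listed under these symbols and SPARC under its older symbol, BM-40-SPARC. All 10 passed the filter on low counts that left 9846 genes.

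RNA was sequenced from cuticle with attached fat body of adult females aged 1 week. The 9G8 RNAi flies (yolk-Gal4>9G8RNAi, n = 4 libraries) used yolk-Gal4, which drives expression in adult female fat body cells, to express a hairpin that targets 9G8, the SR splicing factor encoded by the gene x16. Control flies (yolk-Gal4/w1118, n = 4 libraries) carried the same driver without a hairpin, so the hairpin insertion and any difference in strain background go with genotype and cannot be told apart from any effect on the target. Driver activity is placed in fat body cells, while cuticle preparations can also hold epidermis, muscle, hemocytes and other cells.

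The 9G8 RNAi libraries held 25396063 to 36181492 counts and the controls 27946556 to 34750635 counts. Levels are CPM, a library's counts scaled to a fixed total, after scaling each library with a TMM factor, which corrects for differences in composition. These factors were 0.758 to 1.54 in 9G8 RNAi and 0.825 to 1.201 in control. The x16 transcript was at 198.6, 34.7, 103.1 and 49.5 CPM in 9G8 RNAi libraries 1 to 4, and at 60.4, 65.6, 325.5 and 145.1 CPM in controls 1 to 4, which overlap (log2 fold change -0.63, adjusted p = 0.862 with edgeR's quasi-likelihood F test). A knockdown of x16 is therefore not shown at the transcript level, 9G8 RNAi 1 lay above 3 of the 4 controls, and the group names are those of the labels. Yp1, Yp2 and Yp3, yolk proteins made by the female fat body, were present in both groups, at means of 2098, 5013 and 5379 CPM in 9G8 RNAi and of 699.7, 1651 and 2828 CPM in control. Of 8 tested fat body genes Yp2 rose (adjusted p = 0.0490) and Lsp2 fell, against 0.995% of all tested genes higher and 2.21% lower. The list summed to 12205 to 20784 CPM in 9G8 RNAi and to 7058 to 11376 CPM in control, ranges that do not overlap. Yp1, Yp2 and Yp3 make up most of this sum. The mean log2 CPM of the 8 tested genes, in which each gene counts equally, overlapped. It was 8.72 to 9.59 in 9G8 RNAi and 8.46 to 9.20 in control. The part of the difference in the sum in the values of the matrix genes was not tested. Libraries of both genotypes carried varying amounts of transcripts of other tissues: eggshell and follicle cell genes summed to 39.2 to 8100 CPM in 9G8 RNAi and to 14.9 to 8549 CPM in control, and gut genes to 10265 to 31331 CPM in 9G8 RNAi and to 173.6 to 16378 CPM in control.

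One of the 10 matrix genes, Pxn, fell in 9G8 RNAi, none rose and 9 did not pass. Across all 9846 tested genes, 3.21% changed (2.21% lower and 0.995% higher). Of the 10 genes 9 had a negative log2 fold change, against 49.2% of all tested genes, and their median was -0.96, against 0.01 over all tested genes. At an unadjusted p under 0.05, 4 of the 10 were lower (Pxn, Ppn, Mmp2 and Tig) and 0 higher, against 12.9% of all genes in either direction and 7.79% lower. Most of the 10 genes varied together across libraries, so that they are not 10 independent observations. The count of calls depended on the tool. DESeq2 called 3 of the 10 lower (Pxn, Ppn and Mmp2), but it also called more of all genes lower. It called 349 of 9801 genes lower, against 218 of 9846 in edgeR. Settings such as RLE factors called 0 of the 10. In these bulk samples, fewer cells that make a transcript and less of it per cell cannot be told apart.

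**Figure D1:**
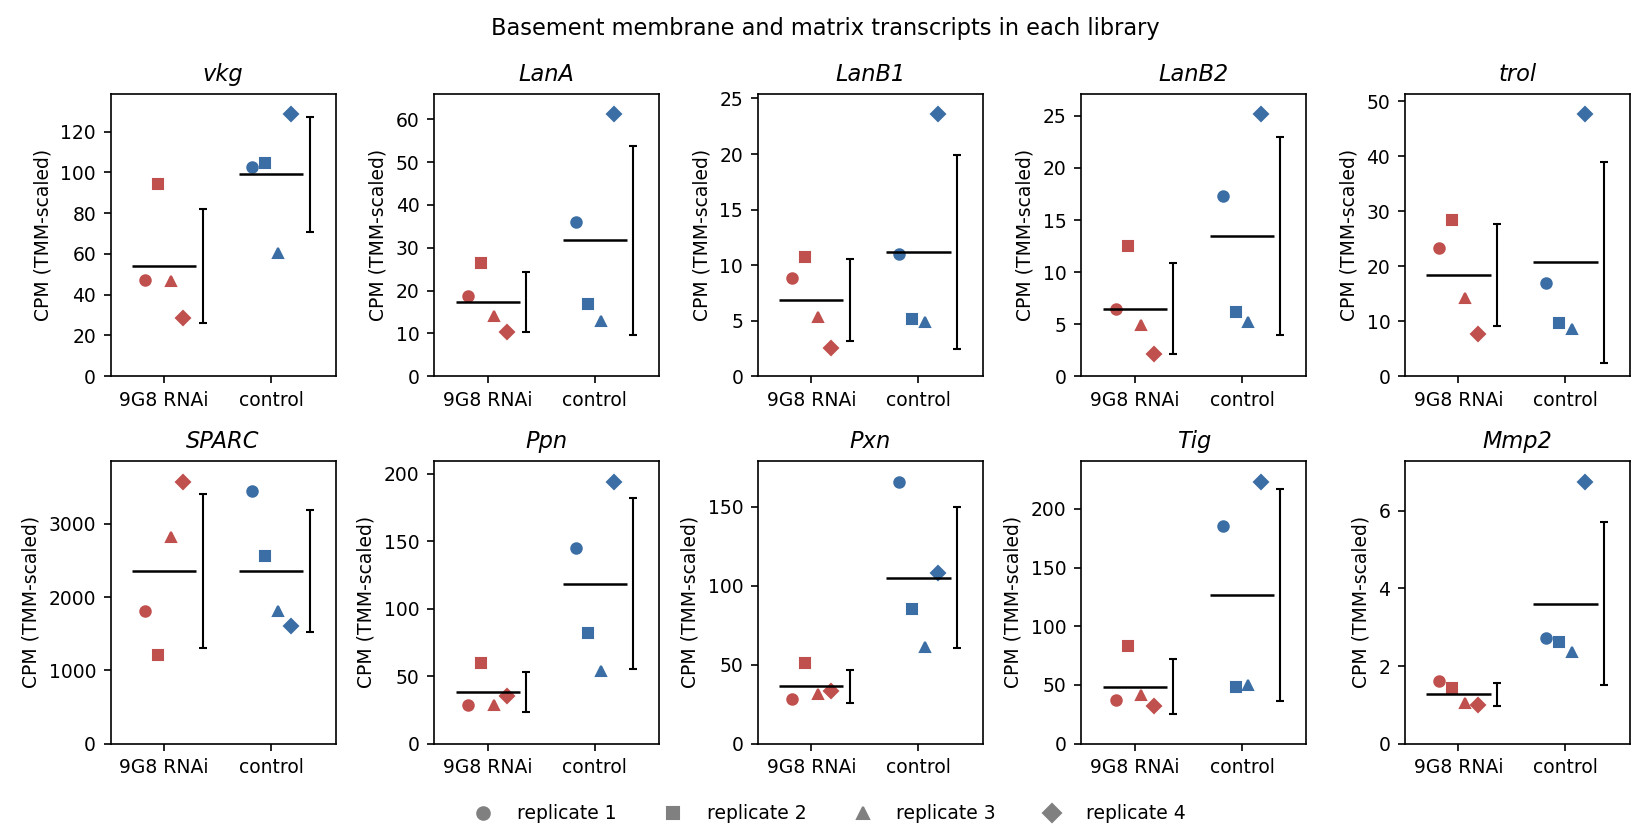
Level of each of the 10 matrix genes in CPM (TMM-scaled) in each library, with 9G8 RNAi at the left and control at the right of each panel. Horizontal lines are group means and bars at their right are ± 1 SD (n = 4). The groups of Pxn and Mmp2 do not overlap, as in 8.73% of all tested genes in either direction. Those of the other 8 do, and control 4 is the highest control in 8 of the panels.

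Peroxidasin is a secreted heme peroxidase that forms crosslinks in the collagen IV network, and in flies its transcript is also used as a hemocyte marker. Pxn (FBgn0011828) covers 3L from 2601455 to 2630064, on the minus strand, in the BDGP6 coordinates of the files, with 10 merged exons. It was at 28.3, 51.4, 31.7 and 33.7 CPM in 9G8 RNAi libraries 1 to 4, and at 165.8, 85.6, 61.2 and 108.3 CPM in controls 1 to 4. All 4 values of 9G8 RNAi were below the lowest control, a separation seen in 8.73% of all tested genes in either direction, in 5.78% with 9G8 RNAi below and in 2.96% with 9G8 RNAi above. The means were 36.3 ± 10.3 CPM in 9G8 RNAi and 105.2 ± 44.7 CPM in control (SD, n = 4 each), and the log2 fold change was -1.54 (SE 0.37, 95% interval -2.35 to -0.72, adjusted p = 0.0465 in edgeR). Without TMM factors the groups overlapped, with 9G8 RNAi 2 at 78.9 CPM and controls 2 and 3 at 70.6 and 63.0 CPM, and the adjusted p was 0.185.

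The call of Pxn stood close to the threshold. It was lost without control 1 (adjusted p = 0.193), control 2 (0.0816), control 4 (0.0833), 9G8 RNAi 1 (0.196), 9G8 RNAi 3 (0.159) or 9G8 RNAi 4 (0.0664), while the log2 fold change stayed between -1.77 and -1.14. Pxn shares 151 of its exon bases with CR45660 on the same strand and 82 with CG16986 on the opposite strand, and whether the counting used strand is not stated in the sources used.

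Papilin, a secreted glycoprotein related to the ADAMTS proteases, and tiggrin, a ligand of the position-specific integrins of the fly, are also known products of hemocytes. Ppn (FBgn0003137, 3R from 28520665 to 28540324, minus strand) was at 28.8, 59.8, 28.6 and 35.2 CPM in 9G8 RNAi, and at 145.2, 81.8, 53.6 and 194.0 CPM in control. The groups overlapped by 1 library, 9G8 RNAi 2, which lay above control 3. The log2 fold change was -1.64 (SE 0.44, 95% interval -2.60 to -0.68, adjusted p = 0.0746), and the gene passed in 1 of 8 fits that each dropped a library. That was the fit without control 3 (-1.88, adjusted p = 0.0388), against an adjusted p of 0.250 without 9G8 RNAi 1 and of 0.169 without control 4 (-1.27). Tig (FBgn0011722, 2L from 6415179 to 6423310, minus strand) was at 37.4, 82.9, 41.7 and 31.8 CPM in 9G8 RNAi, and at 185.1, 48.4, 50.1 and 222.9 CPM in control. Controls 1 and 4 were high while controls 2 and 3 lay within the range of 9G8 RNAi. The log2 fold change was -1.39 (SE 0.54, 95% interval -2.56 to -0.21, adjusted p = 0.264). Tig shares 157 exon bases with CG13982 on the opposite strand.

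Mmp2, a membrane-anchored metalloprotease known in the fly for cleaving basement membrane during tissue remodelling, was the scarcest of the 10, with 184 counts over the 9G8 RNAi libraries and 451 over the controls. The gene (FBgn0033438) covers 2R from 9611139 to 9683858, on the minus strand. Its level was 1.62, 1.42, 1.04 and 0.987 CPM in 9G8 RNAi, and 2.73, 2.61, 2.35 and 6.74 CPM in control. The groups did not overlap, as in 5.78% of all tested genes with 9G8 RNAi below, and control 4 stood far above the other controls. The log2 fold change was -1.50 (SE 0.46, 95% interval -2.50 to -0.50, adjusted p = 0.124). Without control 4 it was -1.01. Without TMM factors the groups overlapped, with 9G8 RNAi 2 at 2.19 CPM and control 2 at 2.15 CPM. Mmp2 shares 287 exon bases with CR44069 on the opposite strand.

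Collagen IV of the fly is a trimer of 2 kinds of chain, which are encoded by the neighbouring genes vkg and Cg25C (now Col4a1). vkg (FBgn0016075, minus strand of 2L from 5012144 to 5028191) and Cg25C (plus strand from 5029609 to 5037279) point away from each other with 1417 bases between them. vkg was at 47.0, 94.1, 46.9 and 28.4 CPM in 9G8 RNAi, and at 102.6, 104.5, 60.3 and 128.4 CPM in control. The groups overlapped through 9G8 RNAi 2 and control 3. The log2 fold change was -0.87 (SE 0.40, 95% interval -1.75 to 0.01, adjusted p = 0.392). As for vkg, the highest and lowest libraries of Cg25C were 2 and 4 in 9G8 RNAi and 4 and 3 in control. It was at 68.9, 135.0, 73.1 and 32.5 CPM in 9G8 RNAi and 166.4, 141.4, 83.7 and 208.1 CPM in control (log2 fold change -0.95, 95% interval -1.91 to 0.01, adjusted p = 0.395).

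The 2 collagen IV transcripts kept nearly the same ratio in every library. Per kilobase of exon, the ratio of vkg to Cg25C was 0.647, 0.661, 0.607 and 0.830 in 9G8 RNAi, and 0.584, 0.701, 0.683 and 0.585 in control, while vkg itself varied 4.52-fold across the 8 libraries. Of 6035 other genes with a mean of at least 5 CPM, Cg25C had the profile closest to vkg, with a root mean square difference of 0.16 in log2 CPM after centring each gene over the 8 libraries. The next were GlyS (glycogen synthase, 0.22), tok (tolkin, a secreted metalloprotease, 0.24), betaCOP (0.25) and Sec31 (0.27), both of the vesicle coats of the secretory pathway. The other matrix genes came later in this order: LanA was at rank 187, Pxn at 232, Ppn at 304, LanB2 at 437, LanB1 at 575, Tig at 643, trol at 1640 and SPARC at 4590. This order rests on 8 libraries that share a genotype difference and differences in tissue composition.

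Laminin is a trimer of an alpha, a beta and a gamma chain, and in the fly LanB1 and LanB2 encode the only beta and gamma chains while LanA and wb encode the alternative alpha chains. LanA (FBgn0002526, 3L from 6203831 to 6218022, minus strand) was at 18.6, 26.5, 14.0 and 10.4 CPM in 9G8 RNAi, and at 36.1, 16.9, 12.9 and 61.1 CPM in control. LanB1 (FBgn0261800, 2L from 7811438 to 7820771, plus strand) was at 8.87, 10.7, 5.35 and 2.49 CPM in 9G8 RNAi, and at 11.03, 5.18, 4.87 and 23.6 CPM in control. LanB2 (FBgn0267348, 3L from 9614914 to 9623980, plus strand) was at 6.41, 12.5, 4.93 and 2.13 CPM in 9G8 RNAi, and at 17.3, 6.12, 5.23 and 25.1 CPM in control. For all 3 the groups overlapped widely, control 4 was the highest library and 9G8 RNAi 4 the lowest.

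None of the 3 laminin genes passed. Their log2 fold changes were -0.87 for LanA (95% interval -1.93 to 0.19, adjusted p = 0.546), -0.70 for LanB1 (-1.94 to 0.55, adjusted p = 0.790) and -1.04 for LanB2 (-2.35 to 0.26, adjusted p = 0.565). Each interval spans 0 and reaches below -1. Without control 4 they were -0.32, -0.02 and -0.52. The other alpha chain, wb, was at 2.61 ± 0.610 CPM in 9G8 RNAi and 2.68 ± 0.664 CPM in control (log2 fold change -0.04, SE 0.38, adjusted p = 0.989). Its sign changed with the scaling: it was 0.06 with TMM factors taken without the 20 most abundant genes and 0.17 with library size only.

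The laminin subunits varied together across libraries. Per kilobase, LanA was at 1.13, 1.33, 1.402 and 2.24 times LanB1 in 9G8 RNAi, and at 1.76, 1.75, 1.42 and 1.39 times LanB1 in control. LanB1 was at 0.808 to 1.30 times LanB2 in 9G8 RNAi and at 0.601 to 0.883 times LanB2 in control. Over the same libraries LanB1 varied 9.44-fold and LanB2 11.8-fold. Among the 6035 genes, LanA had rank 3 in likeness to LanB1 (root mean square difference 0.28), LanB2 rank 10 (0.31) and trol rank 15 (0.32). The other 4 of the first 5 were alt (0.21), CenB1A (0.25), TppII (a tripeptidyl peptidase, 0.29) and Khc (kinesin heavy chain, 0.30). vkg was at rank 586.

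Perlecan binds laminin, collagen IV and growth factors through its core protein and its heparan sulfate chains. trol (FBgn0284408, X from 2470460 to 2545410, minus strand) has 53 merged exons in the files and 25 transcripts in a later annotation, which gene totals do not separate. It was at 23.3, 28.4, 14.2 and 7.59 CPM in 9G8 RNAi, and at 16.9, 9.71, 8.65 and 47.6 CPM in control. Controls 1, 2 and 3 lay inside the range of 9G8 RNAi. The log2 fold change was -0.17 (SE 0.57, 95% interval -1.40 to 1.06, adjusted p = 0.967). Its sign turned without control 4 (0.66), without 9G8 RNAi 4 (0.08) and with library size only (0.01).

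SPARC is a secreted calcium-binding glycoprotein that binds collagen IV and is needed in the fly for its stable deposition. It was the most abundant of the 10 genes by far. SPARC (FBgn0026562, 3R from 26869238 to 26871995, minus strand, 4 merged exons) was at 1814, 1214, 2828 and 3574 CPM in 9G8 RNAi, and at 3448, 2561, 1812 and 1602 CPM in control. The groups covered nearly the same range, with means of 2357 ± 1050 CPM in 9G8 RNAi and 2356 ± 836 CPM in control (SD, n = 4 each). The log2 fold change was 0.00 (SE 0.42, 95% interval -0.92 to 0.92, adjusted p = 0.9998). Changes inside this interval are not excluded, and its bounds are not a limit of detection. The log2 fold change lay between -0.27 and 0.34 with a library left out. It was 0.03 with RLE factors, 0.12 with TMM factors taken without the 20 most abundant genes and 0.07 with library size only.

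**Figure D2:**
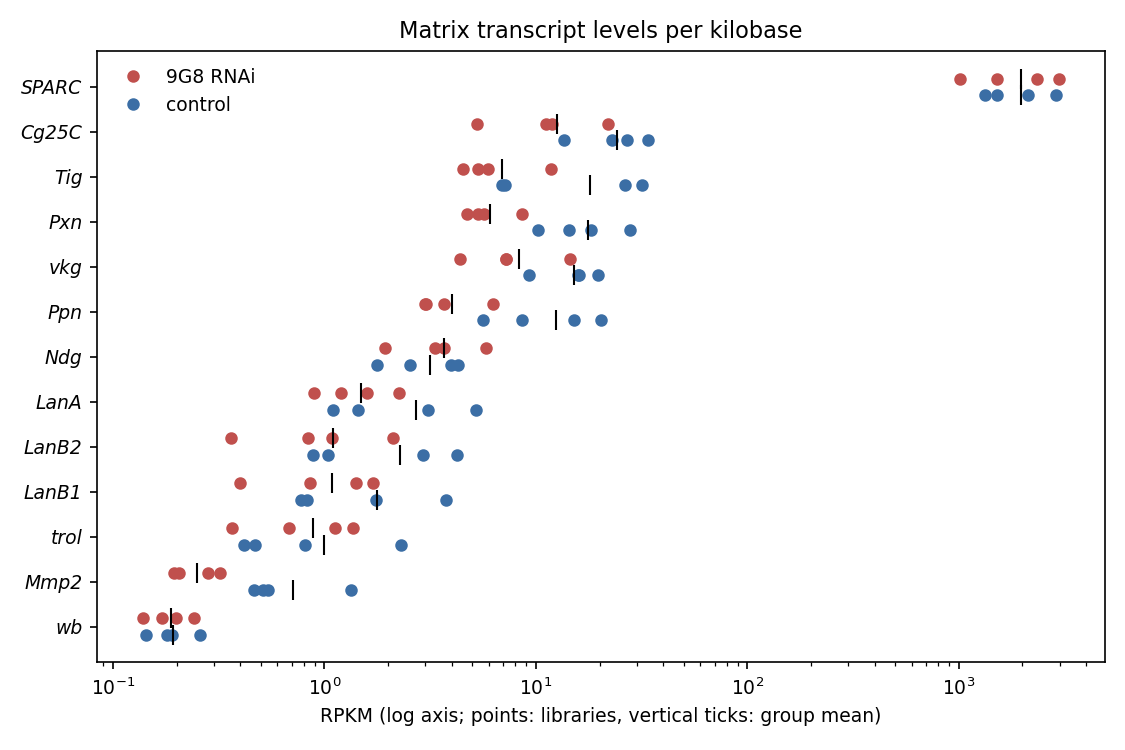
Levels per kilobase of exon (RPKM, log axis) of the 10 matrix genes and of Cg25C, Ndg and wb, with 9G8 RNAi above control for each gene. Points are libraries and vertical ticks group means (n = 4). SPARC averages 1962 RPKM over the 8 libraries, and the highest value of the other genes is 33.8 RPKM (Cg25C in control 4).

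Ordered by level per kilobase (RPKM, mean over the 8 libraries), SPARC came first at 1962, followed by Tig at 12.5, Pxn at 11.9, vkg at 11.8 and Ppn at 8.21. LanA at 2.10, LanB2 at 1.68, LanB1 at 1.43, trol at 0.940 and Mmp2 at 0.481 came after them. SPARC stood above 98.8% of all tested genes on this scale, vkg above 69.1% and Mmp2 above 12.1%. Within a genotype, Tig, Pxn, vkg and Ppn had overlapping ranges, and so did the 3 laminin genes and trol. In controls, for example, vkg was at 9.27 to 19.7 RPKM, Tig at 6.90 to 31.8 and Pxn at 10.3 to 27.8, so that the order among these genes is not set beyond their spread. Cg25C, at 18.4 RPKM, was above vkg in all 8 libraries.

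SPARC also ran against most of the others across the libraries of 9G8 RNAi, and within control only in part. Within 9G8 RNAi, library 2 was the highest for 8 of the 10 genes and library 4 the lowest for 7, but SPARC was lowest in library 2 and highest in library 4. Within control, library 4 was the highest for 8 of the 10 and library 3 the lowest for 8, but SPARC was lowest in library 4. SPARC was above its mean over all libraries in control 1 (0.64 in log2 CPM) and below it in control 3 (-0.29). Most of the other matrix genes had the same signs there. The muscle genes Mhc, bt and up had the highest and lowest libraries of most matrix genes in both genotypes, and the other muscle genes did not. The share of all genes with this order was not computed. By exon length, SPARC (1201 bases) was the shortest of the 10 genes, and the others had 5065 (Mmp2) to 20786 bases (trol). The part of transcript length in the order of the libraries was not tested. Without TMM factors SPARC was still lowest in 9G8 RNAi 2 (1865 CPM) and highest in 9G8 RNAi 4 (2708 CPM), and control 3 (1863 CPM) was then below control 4 (1922 CPM). The TMM factor was 1.54 in 9G8 RNAi 2, 0.758 in 9G8 RNAi 4 and 1.201 in control 4, so library composition moved with this order and its part was not tested. SPARC to vkg per kilobase accordingly ranged from 69.8 to 681 in 9G8 RNAi and from 67.6 to 182 in control.

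**Figure D3:**
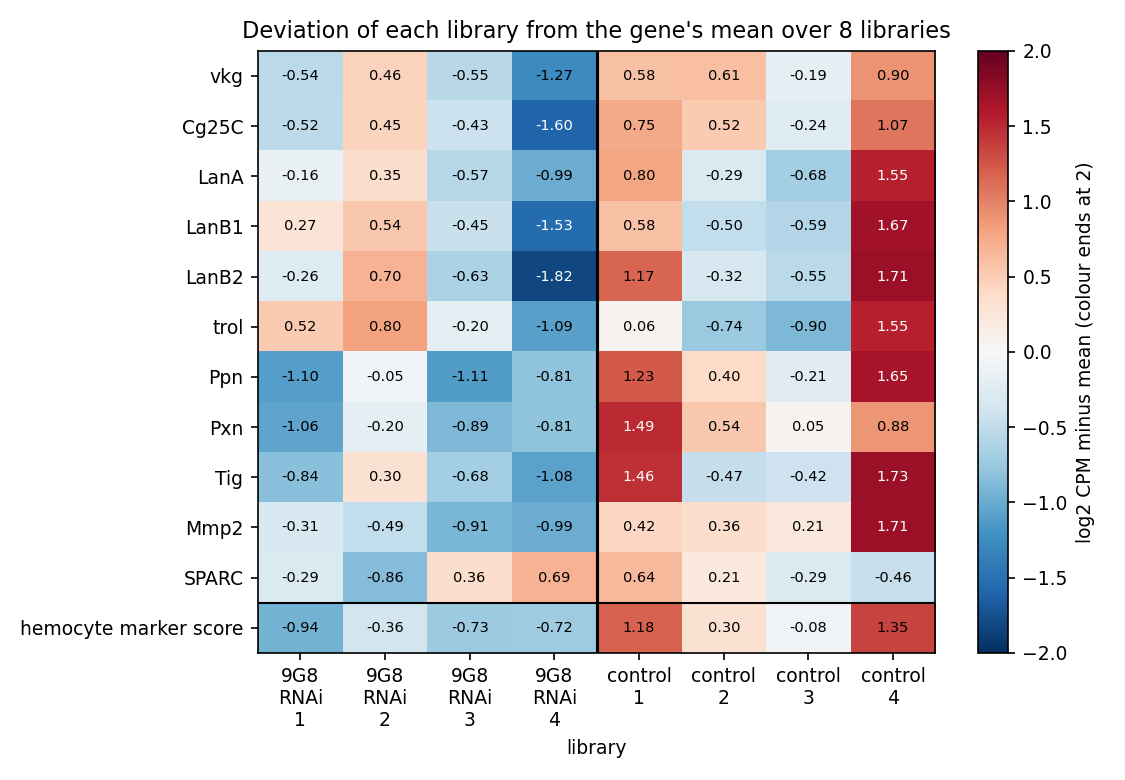
Deviation of each library from the mean of a gene over the 8 libraries, in log2 CPM, for the 10 matrix genes, Cg25C and the mean of 8 hemocyte markers, with 9G8 RNAi at the left and control at the right. Control 4 is high and 9G8 RNAi 4 low for all genes shown but SPARC, and the hemocyte score is between -0.94 and -0.36 in 9G8 RNAi and between -0.08 and 1.35 in control.

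Most hemocyte markers did not pass the test, but all 8 had negative log2 fold changes, like 9 of the 10 matrix genes. Over all tested genes, 49.2% had a negative log2 fold change, 2.21% fell and 0.995% rose. Of 8 markers (Hml, NimC1, eater, He, Sr-CI, crq, NimC4 and srp, with Pxn left out), 2 fell, 0 rose and 6 did not pass, and their log2 fold changes ran from -3.89 (NimC4) to -0.46 (srp) with a median of -1.25. Their summed level was 56.1, 87.6, 51.1 and 43.8 CPM in 9G8 RNAi, and 168.6, 91.4, 66.1 and 192.6 CPM in control. The sum was highest in library 2 and lowest in library 4 of 9G8 RNAi, as for most matrix genes, but Hml, crq and srp make up most of it. None of the 8 was at 0. The 2 that fell were He (Hemese), at 0.957 ± 0.481 CPM in 9G8 RNAi and 3.69 ± 0.857 CPM in control (adjusted p = 0.0364), and NimC4, a receptor for apoptotic cells that glia also express, at 1.37 ± 0.937 and 20.2 ± 6.17 CPM in the same order (adjusted p = 0.00275). Both were lowest in 9G8 RNAi 2, at 0.582 CPM for He and 0.539 CPM for NimC4, the library in which 8 of the 10 matrix genes were highest within 9G8 RNAi. Hml (hemolectin), a clotting factor used as a hemocyte marker, was at 14.8 ± 8.05 CPM in 9G8 RNAi and 37.5 ± 24.5 CPM in control (-1.34 in log2 fold change, adjusted p = 0.256).

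Ratios to Hml per kilobase are given as a description, since Hml was picked after the data were seen and its log2 fold change (-1.34) is smaller in size than those of He (-1.96) and NimC4 (-3.89). Pxn, at -1.54, lies between them, so its standing against hemocyte markers depends on the marker. Pxn was at 4.84, 3.81, 5.09 and 7.66 times Hml in 9G8 RNAi, and at 6.29, 8.88, 8.31 and 3.32 times Hml in control. Tig was at 5.43, 5.21, 5.68 and 6.14 times Hml in 9G8 RNAi, and at 5.96, 4.26, 5.77 and 5.79 times Hml in control. That ratio spanned 4.26 to 6.14 over libraries in which the level of Tig itself varied 7.01-fold. With the mean of the hemocyte markers as a covariate, the log2 fold change of Pxn was -0.29 (adjusted p = 0.724) and 2 genes in all were higher and 2 lower. The score did not overlap between the genotypes, at 1.79 to 2.37 in 9G8 RNAi and 2.65 to 4.08 in control, so that such a fit cannot tell genotype and score apart.

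Among markers of other cells, 0 of 10 eggshell and follicle genes, 0 of 6 tested gut genes and 0 of 9 muscle genes changed at an adjusted p under 0.05, against 3.21% of all tested genes. Their median log2 fold changes were 1.37, 0.74 and 0.11 in the same order. The eggshell genes had SEs of 1.36 to 2.11, so that a log2 fold change of 3.79 (Vm26Ab) did not pass and the lack of calls says little. Muscle genes summed to 803.3 to 1706 CPM in 9G8 RNAi and to 842.6 to 1841 CPM in control. Follicle cells, muscle and gut also carry or make basement membrane, and the part of gut in the values was not tested. With the eggshell and follicle score as a covariate, Pxn had a log2 fold change of -1.47 (adjusted p = 0.105). With the germline score it was -1.36 (adjusted p = 0.0542) and with the muscle score -1.56 (adjusted p = 0.0295). In the fit with the germline score, Mmp2 was the only matrix gene of the 10 that passed (-1.67, adjusted p = 0.0318).

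Of 47 genes listed for the matrix, its processing, its proteases and its receptors, the 10 genes included, 43 were tested. In 9G8 RNAi 4 of them fell and 0 rose (3.21% of all tested genes changed). At an unadjusted p under 0.05, 10 of the 43 were lower and 0 higher, against 12.9% of all tested genes in either direction and 7.79% lower. Of the 33 outside the 10 genes, 6 were lower at this threshold. The median log2 fold change of the 43 was -0.29, and that of the 33 outside the 10 genes was -0.14, against 0.01 over all tested genes. The falls beside Pxn were Mmp1 and CG4096 (now AdamTS-B) among 6 proteases and inhibitors, and dlp among 10 tested receptors and cell surface proteins.

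Mmp1, the other matrix metalloprotease of the fly, was at 10.01, 19.8, 11.1 and 19.2 CPM in 9G8 RNAi, and at 71.4, 36.3, 23.7 and 78.3 CPM in control (-1.80 in log2 fold change, SE 0.43, adjusted p = 0.0444). CG4096, of the ADAMTS family of secreted proteases, was at 1.55, 2.09, 1.76 and 5.41 CPM in 9G8 RNAi, and at 13.2, 20.5, 11.1 and 5.76 CPM in control (-2.24, SE 0.52, adjusted p = 0.0386). The groups of both genes were apart, as in 5.78% of all tested genes with 9G8 RNAi below. For CG4096 the margin between 9G8 RNAi 4 and control 4 was small. The proteoglycan dlp (Dally-like), a glypican that carries signalling ligands at the cell surface, was at 4.93, 2.67, 1.599 and 4.31 CPM in 9G8 RNAi, and at 18.3, 13.9, 8.37 and 20.7 CPM in control (-2.18, SE 0.44, adjusted p = 0.0204).

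These calls rested on single libraries to differing degrees. Of 8 fits without a library, dlp passed in 5 and lost its call without control 1 (adjusted p = 0.0661), 9G8 RNAi 2 (0.0774) or 9G8 RNAi 3 (0.0644). Mmp1 held in 2 of 8, without control 3 (0.0184) or 9G8 RNAi 4 (0.0392), and its largest adjusted p was 0.168. CG4096 held in 2 of 8, without control 4 (0.0236) or 9G8 RNAi 4 (0.00599), and its largest adjusted p was 0.137. With the hemocyte score as a covariate none of the 3 passed, and the log2 fold change was 0.02 for Mmp1, -2.91 for CG4096 and -1.34 for dlp.

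Timp, the inhibitor of the metalloproteases, was picked beside them after its values were seen. It was at 33.3 ± 14.2 CPM in 9G8 RNAi and 49.0 ± 9.74 CPM in control (log2 fold change -0.56, SE 0.35, adjusted p = 0.625). Among collagen processing genes none of 4 tested passed, and the most abundant, the prolyl hydroxylase gene PH4alphaEFB, was at -0.55 in log2 fold change (SE 0.34, adjusted p = 0.627). Of 8 genes of integrin adhesion sites none passed, and Pax (paxillin), the most abundant, was at -0.15 (SE 0.35, adjusted p = 0.953). The median over these 8 was -0.11.

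**Figure D4:**
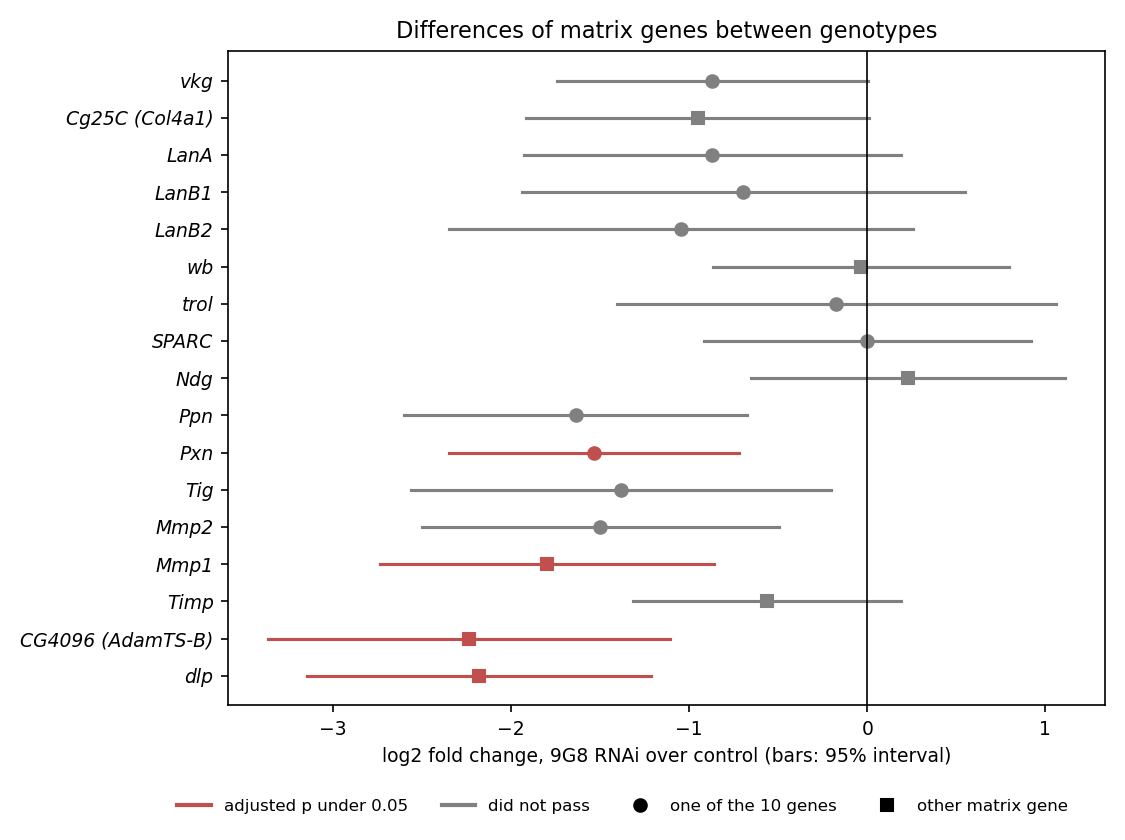
Log2 fold change of 9G8 RNAi over control with 95% intervals for the 10 matrix genes (circles) and 7 others (squares). Pxn, Mmp1, CG4096 and dlp, in red, have an adjusted p under 0.05, and wb, trol, SPARC and Ndg lie nearest to 0.

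Nidogen (Ndg), which links the laminin and collagen IV networks, had the same highest and lowest libraries as vkg within each genotype, and its log2 fold change was near 0. It was at 16.03, 28.0, 17.7 and 9.35 CPM in 9G8 RNAi, and at 19.1, 12.3, 8.56 and 20.7 CPM in control, groups that overlapped (log2 fold change 0.23, SE 0.40, adjusted p = 0.938). Per kilobase, Ndg was at 0.460, 0.402, 0.510 and 0.444 times vkg in 9G8 RNAi, and at 0.252, 0.159, 0.192 and 0.218 times vkg in control. Every library of 9G8 RNAi was above every control in this ratio, with means of 0.454 ± 0.044 and 0.205 ± 0.040 in the same order (SD, n = 4 each). The exact two-sided permutation test over all 70 assignments gave p = 0.0286, which is the lowest value possible, and the adjusted p over the 13 ratios computed (Benjamini-Hochberg) was 0.371. These pairs were chosen after the data were seen. The ratios of vkg to Cg25C (exact p = 0.514, adjusted 0.608) and of LanA to LanB1 (exact p = 0.743, adjusted 0.805) did not separate the genotypes by the same test.

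**Figure D5:**
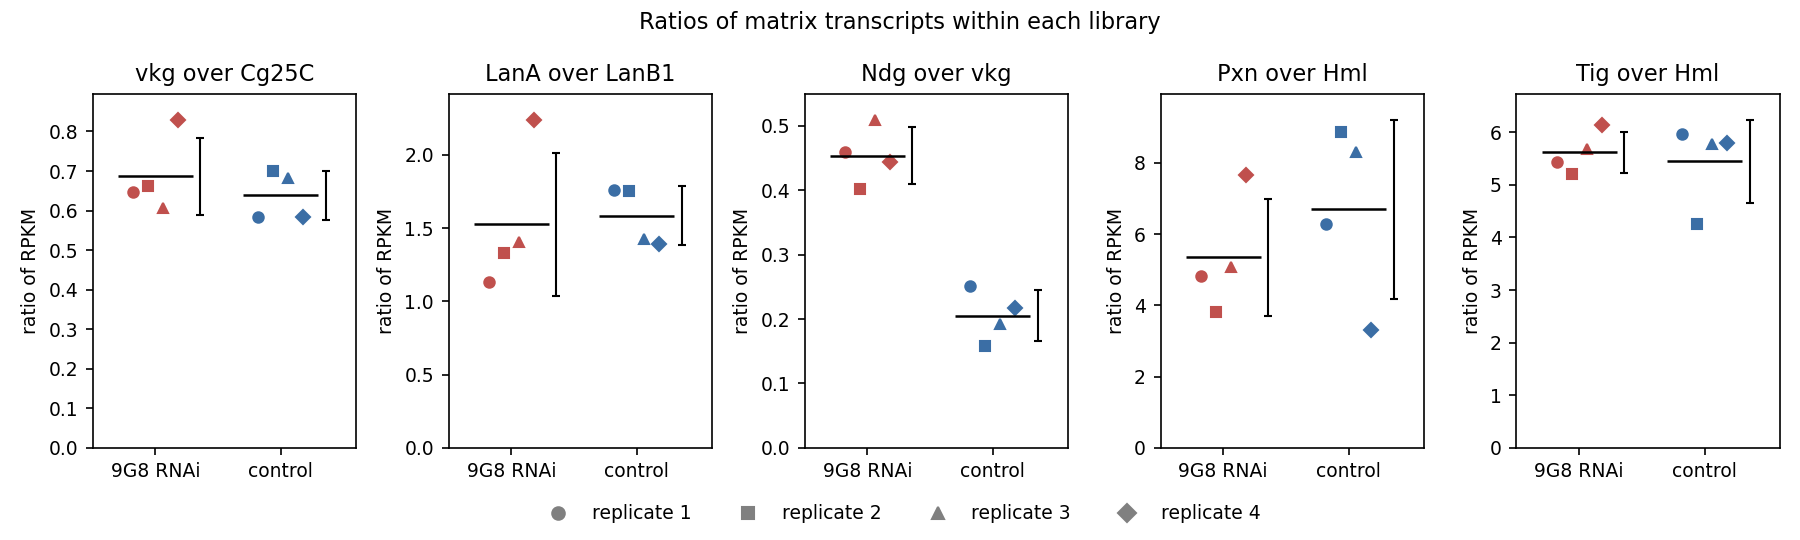
Ratios of RPKM within each library for 5 pairs of transcripts, with 9G8 RNAi at the left and control at the right. Lines are group means and bars ± 1 SD (n = 4). Ndg over vkg is 0.402 to 0.510 in 9G8 RNAi and 0.159 to 0.252 in control, while the groups overlap in the other 4 panels.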

How the data were processed

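Polyadenylated RNA was sequenced on an Illumina instrument, per the labels' protocols. The submitters' processing notes name Trimmomatic 0.36, STAR 2.5.2b, featureCounts from Subread 1.5.2, and BDGP6. Strand use and multi-mapping reads are not described in the sources used. The deposited files hold raw counts per gene with no normalization by the authors. No 2 libraries were identical.

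In R 4.3.3, edgeR 4.0.16 filtered the counts (filterByExpr by group), computed TMM factors and fitted the quasi-likelihood model of 9G8 RNAi against control with no covariate. Adjusted p is Benjamini-Hochberg over all 9846 tested genes, and a gene was called when it was under 0.05. SEs derive from the F statistic. RPKM is TMM-scaled CPM per kilobase of exon in the files. Log2 CPM used a prior count of 2. The same fit was tested on simulated data: for 9G8 RNAi against control (9846 genes), it called 2.39% of 2-fold, 44.8% of 4-fold and 97.3% of 16-fold changes.

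The genes and lists were chosen with earlier results of these data known. Genes named are the 10 genes, called genes of the wider list, Cg25C, wb, Ndg, the most abundant gene of each sub-list that had no call, and the 5 genes most like vkg and LanB1. Timp, the marker genes, x16 and the yolk protein genes were named outside this rule. The labels do not say that libraries came from separate rearings, and p-values therefore reflect only the spread of these libraries. Alternatives were RLE factors, DESeq2 1.42.0, limma-voom (limma 3.58.1), TMM factors taken without the 20 most abundant genes, 2 other filters, a replicate block, 4 marker scores as covariates, and libraries left out; library size alone was added after seeing the data.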

Additional observations from a re-analysis of the deposited data

Results flagged for a closer look

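In 5 of 64 groups of 4 values, 1 library stood apart from the other 3. The rule used flags about 1 in 20 groups of independent, normally distributed values. These groups hold CPM and ratios without a log transform and share libraries and genes, so that rate need not hold here. The highest control for Mmp2 was control 4, at 6.74 CPM. The highest 9G8 RNAi library for CG4096 was library 4, at 5.41 CPM. The ratio of trol to vkg per kilobase was highest in 9G8 RNAi 1, at 0.155. The ratio of Ppn to Hml was highest in 9G8 RNAi 4, at 5.001, and the ratio of Tig to Hml was lowest in control 2, at 4.26.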

How the results depend on the processing

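The number of the 10 matrix genes called lower (1) was 3 with DESeq2, 2 with the muscle score and 2 without control 3 and 9G8 RNAi 2 together. It was 0 with RLE factors, with TMM factors taken without the 20 most abundant genes, with library size only, without a low-count filter, with a filter at a mean CPM of 1, with the replicate block, with the hemocyte score, with the eggshell and follicle score, and without control 4 and 9G8 RNAi 1 together. In the wider list (4 lower) the count was 7 with DESeq2, 2 with RLE factors, 1 with TMM factors taken without the 20 most abundant genes, 1 with library size only, 1 with the replicate block, 0 with the hemocyte score, 2 with the eggshell and follicle score, 2 without control 3 and 9G8 RNAi 2, and 1 without control 4 and 9G8 RNAi 1. Over all tested genes (98 higher, 218 lower), DESeq2 called 174 higher and 349 lower, the replicate block 37 and 104, the hemocyte score 2 and 2, and leaving out control 3 and 9G8 RNAi 2 gave 28 and 68. Without a low-count filter 149 were higher, and with the germline score 191. The eggshell and follicle score left 144 lower, and leaving out control 4 and 9G8 RNAi 1 left 126 lower. With single libraries left out, 0 to 2 of the 10 genes, 0 to 4 of the wider list and 105 to 380 of all genes were lower, and 51 to 124 of all genes were higher.

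With the hemocyte score as a covariate, whose values do not overlap between the genotypes, log2 fold changes turned positive for vkg (0.13), LanA (1.34), LanB1 (1.49), LanB2 (1.44), trol (2.10), Ppn (0.25), Tig (1.21), Mmp1 (0.023), Cg25C (0.30) and wb (0.65), none past the threshold. trol was also positive with library size only (0.012), limma-voom (0.054), the replicate block (0.15) and without control 4 and 9G8 RNAi 1 (0.55), and spanned -0.49 to 0.66 with single libraries left out. SPARC turned negative with limma-voom (-0.046), the replicate block (-0.054), the filter at a mean CPM of 1 (-0.0013), the muscle score (-0.0041) and without control 4 and 9G8 RNAi 1 (-0.040), and spanned -0.27 to 0.34 with single libraries left out. wb turned positive with TMM factors taken without the 20 most abundant genes (0.059), library size only (0.17), no low-count filter (0.037) and without control 4 and 9G8 RNAi 1 (0.13), and spanned -0.21 to 0.14. Ndg was -0.29 without control 3 and 9G8 RNAi 2, and spanned -0.11 to 0.45. Pax was 0.021 with the eggshell and follicle score and 0.037 with the germline score, and spanned -0.32 to 0.13. The cause of these differences was not tested.

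Same-numbered libraries did not deviate together (correlations of -0.593 to -0.018 over 4 pairs, and 0 of 8 libraries correlated best with their own number), so the numbers were not taken as pairs; with the replicate block Pxn was at -1.47 (adjusted p = 0.213). Library size only moved the median log2 fold change of all genes by 0.155, and dropping the low-count filter by 0.101. Mmp2 had few counts (184 in 9G8 RNAi and 451 in control), but its SE (0.46) was near that of SPARC (0.42), which had many more. The part of depth in the spread of Mmp2 was not tested. In simulated data of this size, few changes of 2-fold were called.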
